A study of Mus musculus with 8 samples.

Results

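The genes described here are 32 cell cycle and proliferation genes, taken by symbol from a table of 22549 mouse genes. They were split by the phase they serve into 12 S phase members, which start or carry out DNA replication, and 20 mitotic members, which act from late S phase to cell division. All 32 symbols were in the table. RNA was sequenced from skin iNKT cells (4 libraries) and from spleen iNKT cells (4 libraries). Mice of both groups had the genotype CCR10+/EGFP, as the labels write it, so the spleen cells that serve as the comparison carry the EGFP allele too. The labels give no age, sex, treatment or sorting gate, and do not say whether animals were pooled or whether the numbered libraries came from separate animals. All p-values here thus rest on the variation among these 8 libraries, part or all of which may be technical.

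Invariant natural killer T (iNKT) cells are T cells with a semi-invariant receptor for lipids presented by CD1d. After they expand in the thymus and settle in tissues, most are quiescent until they meet antigen or cytokine. Transcripts of the cell cycle machinery come in waves: E2F factors turn on the replication genes before S phase, and a complex with B-MYB and FOXM1, which reads CHR elements in promoters, turns on the mitotic genes later. In resting cells the DREAM complex keeps both waves low. Pcna also serves DNA repair, and the Mcm genes serve replication licensing.

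Promoter sequences of both classes were searched for the elements of these waves. RefSeq promoters of build GRCm38.p6 were at hand for 10 of the 12 S phase members and 17 of the 20 mitotic members. The submitters' processing notes name mm9 for the counts, so these coordinates locate the promoters only. The 120 bases before the start site are shown, 5′ to 3′ on the gene's strand, for 4 mitotic members that come up below and for 2 S phase members of unlike motif content. Capitals mark 3 motifs, each searched on both strands: the CHR element (TTTGAA), the CCAAT box (CCAAT) and E2F sites (TTGGCGC, its variant TTCCCGC, or the further variants TTCGCGC and also TTGCCGC).
Kif11, chr19:37376262-37376381, plus strand: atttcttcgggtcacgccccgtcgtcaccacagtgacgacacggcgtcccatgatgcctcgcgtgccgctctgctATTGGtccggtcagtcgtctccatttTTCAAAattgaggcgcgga
Cdc20, chr4:118437344-118437463, minus strand: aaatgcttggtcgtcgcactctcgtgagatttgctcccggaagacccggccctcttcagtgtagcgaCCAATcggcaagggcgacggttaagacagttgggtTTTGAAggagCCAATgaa
Ube2c, chr2:164769809-164769928, plus strand: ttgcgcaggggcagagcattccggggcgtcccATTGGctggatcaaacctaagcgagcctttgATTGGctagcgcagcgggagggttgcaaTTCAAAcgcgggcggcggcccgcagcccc
Ccnb1, chr13:100786487-100786606, minus strand: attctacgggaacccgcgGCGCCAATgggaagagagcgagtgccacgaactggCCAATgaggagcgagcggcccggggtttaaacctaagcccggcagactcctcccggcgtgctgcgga
Mcm6, chr1:128359706-128359825, minus strand: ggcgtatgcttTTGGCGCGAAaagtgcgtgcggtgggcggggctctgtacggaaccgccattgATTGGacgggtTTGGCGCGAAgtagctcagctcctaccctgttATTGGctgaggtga
Pcna, chr2:132253181-132253300, minus strand: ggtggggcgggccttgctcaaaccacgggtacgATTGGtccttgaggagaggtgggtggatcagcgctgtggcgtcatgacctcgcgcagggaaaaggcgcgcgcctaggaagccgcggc

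Kif11, Cdc20 and Ube2c each held 1 CHR element close to the start and at least 1 CCAAT box upstream of it. Mcm6 held 4 E2F matches as overlapping pairs, and 2 CCAAT boxes. In Ccnb1 the E2F match overlapped a CCAAT box, and no CHR element was in the bases shown. Over the window from 250 bases before to 50 after the start, 12 of 17 mitotic members (70.6%) and 1 of 10 S phase members held a CHR element, against 18.1% of all 27025 promoters. A CCAAT box was in 15 of 17 mitotic and 7 of 10 S phase promoters, against 37.9% of all. E2F sites were in 3 of 17 mitotic and 5 of 10 S phase promoters, against 9.69% of all. Of the genes tested in the comparison of tissues that had a promoter in the table, 11.9% held a CHR element, 39.6% a CCAAT box and 18.4% an E2F site. Within 50 bases on either side of the start, the CHR element was in 11 of 17 mitotic members and 0 of 10 S phase members, against 4.92% of all promoters. These are matches of letters and not sites shown to be bound.

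**Figure D1:**
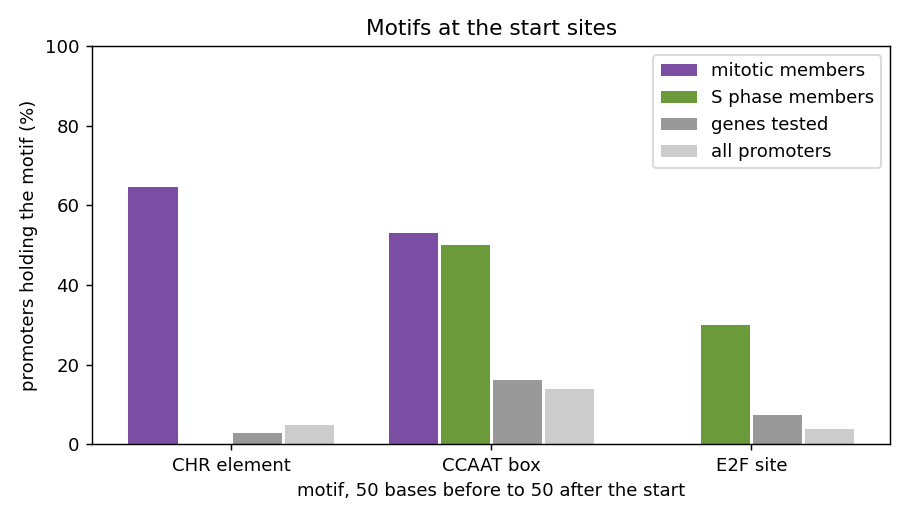
Share of promoters that hold each motif within 50 bases before to 50 after the start (percent), for the mitotic members, the S phase members, the genes tested and all promoters. The CHR element was in 64.7% of mitotic and 0% of S phase members, and the E2F site in 0% of mitotic and 30.0% of S phase members.

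The libraries held 7191130 to 9791970 expected counts, the read numbers that RSEM assigns to genes. Levels below are in CPM, counts scaled to a fixed library total, with library sizes scaled by TMM, a method that evens out differences in composition. Skin libraries held 5302 to 6012 genes with a count, and spleen libraries 6415 to 10094, with no overlap (two-sided exact permutation test, p = 0.0286, which is the lower limit of the test with groups of 4). All 8 T cell and iNKT markers, among them Zbtb16, the lineage's transcription factor, had counts in both tissues, and they summed to 3632 to 4737 CPM in skin, against 4710 to 6606 CPM in spleen. Cd3e averaged 589 ± 252 CPM in skin, against 528 ± 43.3 CPM in spleen, and Cd3d 470.4 ± 83.9 CPM in skin, against 1112 ± 226 CPM in spleen (SD, n = 4 each). The Cd3d difference passed edgeR's test (log2 fold change -1.24 ± 0.22, SE; adjusted p = 0.0250), and lost its call without skin replicates 1 or 3 or spleen replicates 2, 3 or 4. Keratinocyte markers summed to 273 to 1032 CPM in skin, against 0 to 29.5 CPM in spleen, with Krt1 and Dsp at 0 in every skin library. Myeloid markers summed to 227 to 354 CPM in skin, against 25.7 to 157 CPM in spleen. Most of the skin sum was Fcer1g, at 354, 251, 324 and 175 CPM in skin replicates 1 to 4. Fcer1g stood at 25.7, 108, 48.0 and 42.1 CPM in spleen replicates 1 to 4. Of the other myeloid markers, Csf1r and Itgam were at 0 throughout skin, and Lyz2, Cd68 and Cd14 were each found in 1 skin library. Lyz2 averaged 13.1 CPM in skin, against 23.8 CPM in spleen.

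No single member passed the test between tissues. Of the 32 members, 27 had enough counts to be tested, 11 of S phase and 16 mitotic, and edgeR's quasi-likelihood test called 0 higher and 0 lower in skin, with a threshold of 0.05 on the Benjamini-Hochberg adjusted p. Over all 6920 genes tested, 1.85% were higher and 3.58% lower. At an unadjusted p under 0.05 the count was also 0 of 27, against 12.4% of all genes. DESeq2 called 0 members. Limma-voom with quality weights called 2 of the 27, the mitotic members Kif11 and Ube2c, lower in skin, and 519 of all 6920 genes lower. The median SE of a log2 fold change was 2.18 over the members tested and 1.99 over all genes, so changes of several fold were within the error. In bulk samples, fewer cycling cells and less RNA in each cell cannot be told apart.

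The summed level of the mitotic members was lower in every skin library than in any spleen library, while that of the S phase members overlapped. The 20 mitotic members summed to 526, 637, 646 and 483 CPM in skin replicates 1 to 4, against 878, 1921, 1252 and 1450 CPM in spleen replicates 1 to 4. The lowest spleen sum, in replicate 1, was nearest to the skin range. The means were 573 ± 81.1 CPM in skin, against 1375 ± 434 CPM in spleen (SD, n = 4 each), 2.40 times as much in spleen. The 12 S phase members summed to 1881, 1956, 2029 and 980 CPM in skin, against 1753, 2328, 1353 and 2115 CPM in spleen. These sums overlapped, with the lowest value in skin replicate 4, and averaged 1712 ± 491 CPM in skin, against 1887 ± 428 CPM in spleen. The mitotic members made up 21.8% to 33.0% of the CPM of all 32 members in skin libraries and 33.4% to 48.1% in spleen libraries. The lists were chosen with results of these libraries known, so no test is given for the sums.

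**Figure D2:**
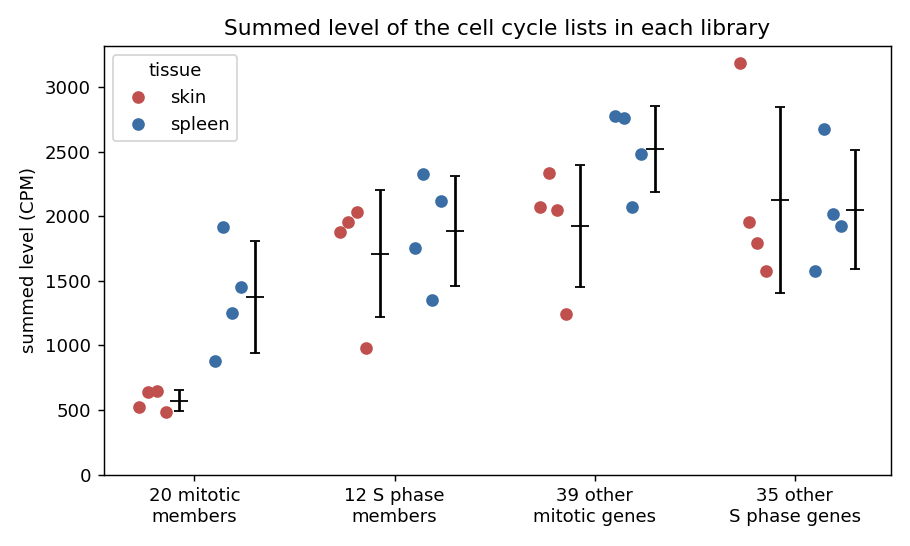
Summed level in CPM (vertical axis) of the 20 mitotic members, the 12 S phase members and the 2 lists of other genes in each library, as points, with mean and SD beside them. The skin sums of the mitotic members, 483 to 646 CPM, all lie below the spleen sums of 878 to 1921 CPM, while the other 3 lists overlap between the tissues.

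The median log2 fold change, skin over spleen, was -1.37 over the 16 mitotic members tested and -0.26 over the 11 S phase members tested, against -0.29 over all genes tested. Of the mitotic members 13 were below 0 and 3 above, and of the S phase members 6 were below and 5 above; of all genes tested, 57.8% were below 0. With limma-voom and quality weights all 16 mitotic and 8 of 11 S phase members were below 0. All genes also moved down in that fit, with a median of -5.74 for mitotic members, -2.48 for S phase members and -2.06 for all genes. Without skin replicate 3 the mitotic median was -2.08 and the S phase median -0.56. That mitotic median was the lowest of the fits with 1 library left out, the others being -1.37 to -1.74. It covers 18 mitotic members tested, not 16, as the filter on low counts passed more genes there. The mitotic medians of these fits are thus not all over the same members. The S phase median was -0.51 without spleen replicate 3, -0.15 without skin replicate 2, -0.072 without skin replicate 4 and -0.057 without spleen replicate 1. Values of the tissues failed to overlap for 1 of the 27 members, Kif11, which was lower in skin; over all genes tested 13.4% were lower and 6.11% higher without overlap.

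**Figure D3:**
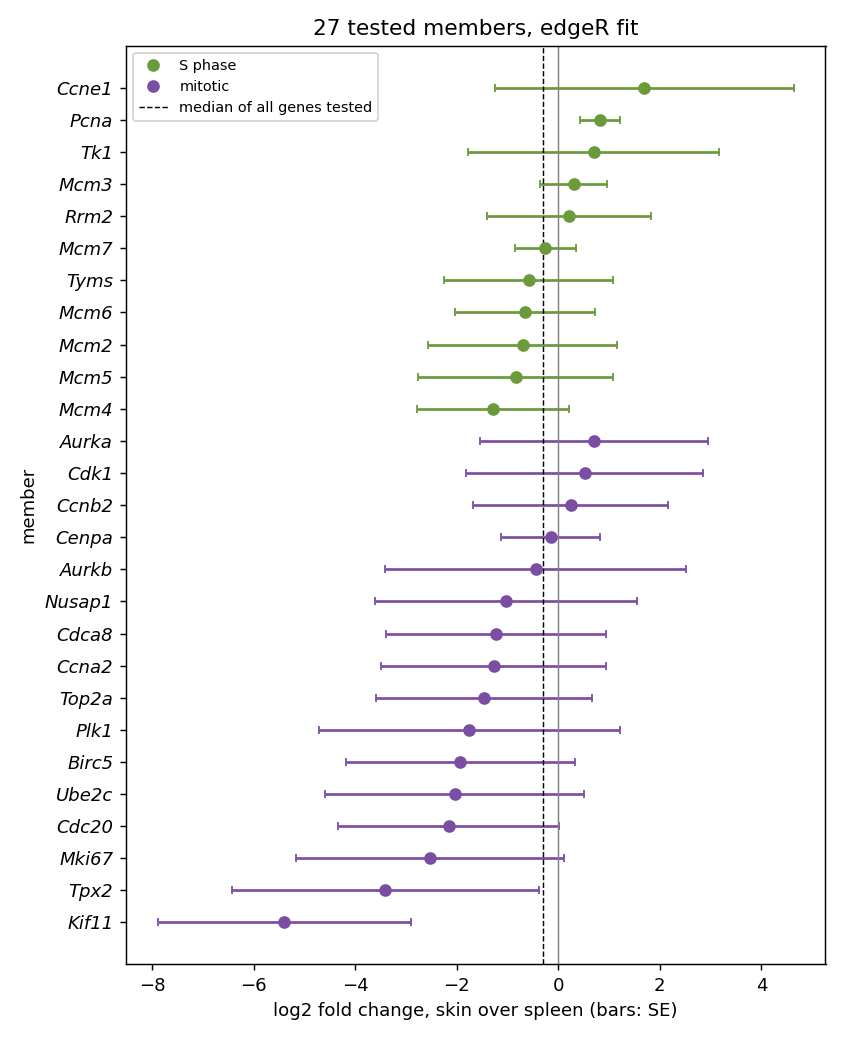
Fitted log2 fold change, skin over spleen, of the 27 members tested, with SE as bars; green marks S phase and purple mitotic members, and the dashed line is the median of all genes tested, -0.29. Mitotic members spread from 0.70 for Aurka to -5.40 for Kif11, and S phase members from 1.69 for Ccne1 to -1.28 for Mcm4.

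Fewer mitotic transcripts were found at all in skin libraries. With detection set at more than 3 counts, which is 0.292 to 0.454 CPM, the mitotic members detected numbered 4, 8, 10 and 9 of 20 in skin replicates 1 to 4, against 10, 19, 19 and 20 in spleen replicates 1 to 4. Spleen replicate 1 matched the highest skin library, and the other 3 spleen libraries were far above. S phase members detected numbered 7, 11, 9 and 8 of 12 in skin, against 9, 10, 11 and 11 in spleen, which overlapped. Each of 17 mitotic members was detected in more spleen than skin libraries, 3 in equal numbers and 0 in more skin libraries. For S phase members these counts were 6, 5 and 1. All 3 wider lists of cell cycle genes described further on, S phase genes included, were also detected in lower numbers in every skin library than in any spleen library.

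The number of all genes with a count was likewise lower in every skin library than in any spleen library. Genes with a count numbered 5304, 5302, 5954 and 6012 in skin replicates 1 to 4. In spleen replicates 1 to 4 they numbered 6415, 6897, 8690 and 10094. In the same order, mitotic members detected numbered 4, 8, 10 and 9 in skin and 10, 19, 19 and 20 in spleen. S phase members detected numbered 7, 11, 9 and 8 in skin and 9, 10, 11 and 11 in spleen. Over all 5477 genes with a mean of 20 to 200 CPM over the 8 libraries, 58.8% to 66.0% were detected in a skin library and 70.5% to 97.6% in a spleen library. The 18 mitotic members in that band were detected at 22.2%, 44.4%, 55.6% and 50% in skin replicates 1 to 4, below the share of all such genes in each. In spleen replicate 1, 55.6% of them were detected against 70.5% of all genes in the band, and in spleen replicates 2 to 4 they were at 100%, 94.4% and 100% against 76.6%, 91.7% and 97.6%. The 7 S phase members in the band were detected at 57.1% to 85.7% in skin and 71.4% to 100% in spleen. The part of library complexity in the difference between the tissues was not tested.

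**Figure D4:**
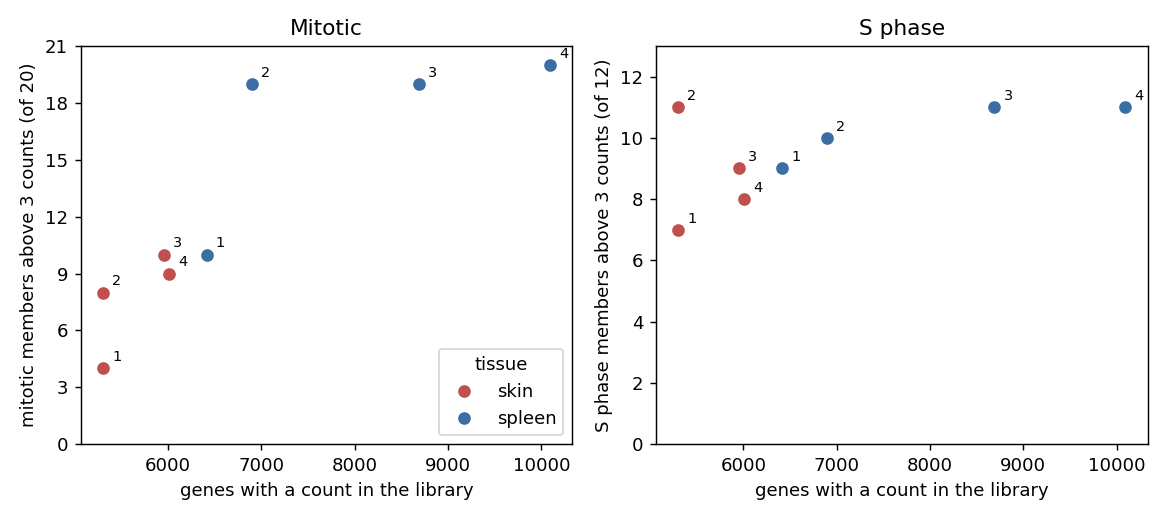
Members above 3 counts (vertical axis; mitotic on the left, S phase on the right) against the number of genes with a count in the library (horizontal axis); numbers are replicate numbers. Mitotic members detected were 4 to 10 of 20 in skin and 10 to 20 in spleen, where spleen replicate 1, with the fewest genes of the spleen libraries, had 10.

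Where a member was detected it was seldom low. Of the 80 values of mitotic members in skin libraries, 48 were 0 and 29 were at or above 10 CPM, with 3 in between. In spleen 12 of 80 were 0 and 67 were at or above 10 CPM. For S phase members 9 of 48 skin values were 0 and 32 at or above 10 CPM, against 5 and 41 of 48 in spleen. This on-and-off pattern was not particular to the members: over all genes in the same band, 35.8% of skin and 14.9% of spleen values were 0, and 58.1% and 79.6% were at or above 10 CPM.

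**Figure D5:**
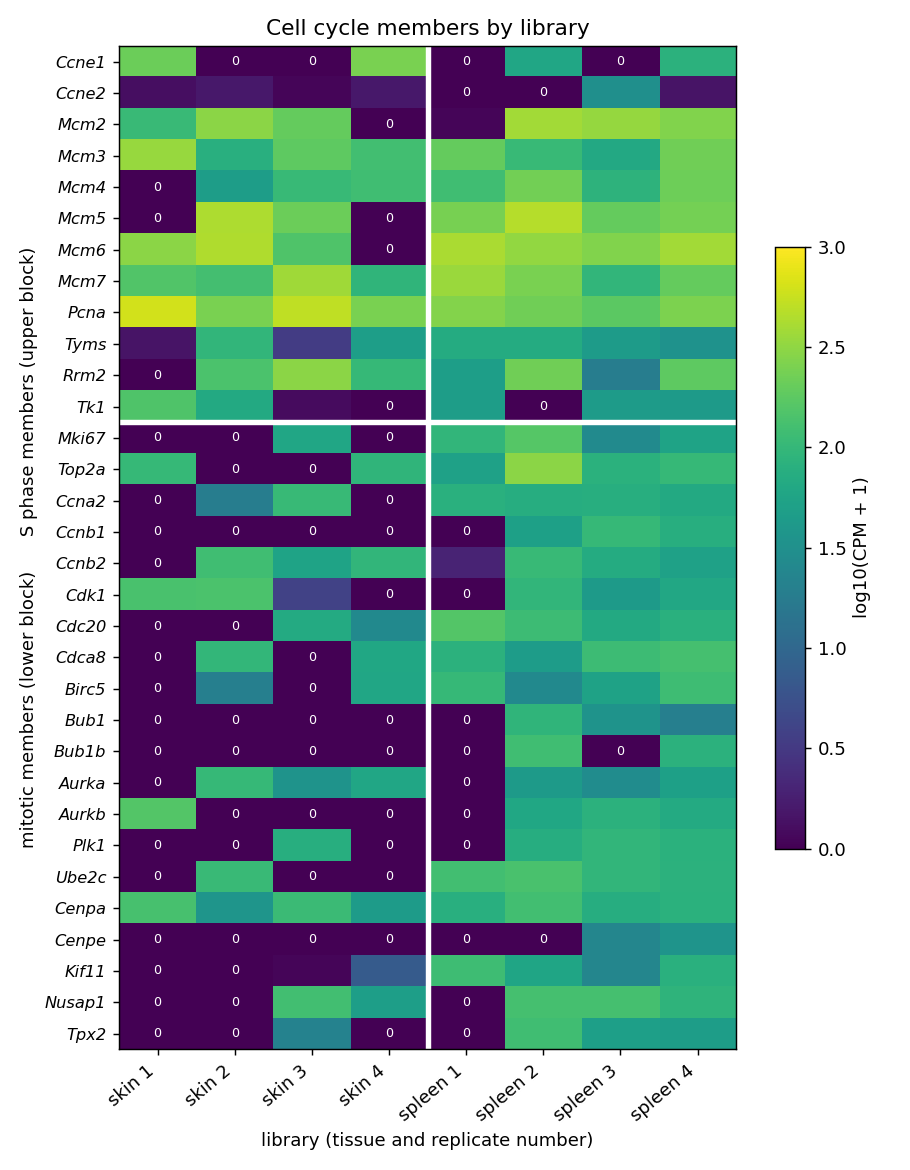
Level of each member (rows; S phase above and mitotic below the white line) in each library (columns; skin left, spleen right), coloured by log10(CPM + 1), with 0 written where no read was counted. Ccnb1, Bub1, Bub1b and Cenpe had 0 counts in the 4 skin libraries, while Pcna, Mcm3, Mcm7, Cenpa and Tyms had counts in all 8 libraries.

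Among the S phase members, the replication clamp Pcna had the fold change with the smallest error. It stood at 624, 251.1, 515 and 249 CPM in skin replicates 1 to 4 and at 273, 224, 174 and 257 CPM in spleen replicates 1 to 4. Skin replicates 1 and 3 were above every spleen library and skin replicates 2 and 4 were within their range. The log2 fold change was 0.82 ± 0.39 (SE), with an edgeR adjusted p of 0.471.

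Mcm2 to Mcm7 encode the 6 subunits of the helicase that opens DNA at replication origins. Their summed level was 899.8, 1408, 1213 and 332 CPM in skin replicates 1 to 4, against 1318, 1755, 1043 and 1518 CPM in spleen replicates 1 to 4. More than 3 counts were found for 4, 6, 6 and 3 of the 6 subunits in skin and for 5, 6, 6 and 6 in spleen. Mcm5 stood at 0, 421, 212 and 0 CPM in skin, against 239, 465, 194 and 236 CPM in spleen. Mcm6 stood at 297, 434, 149 and 0 CPM in skin, against 413, 324, 271 and 379 CPM in spleen. Skin replicate 4 thus lacked Mcm2, Mcm5 and Mcm6 while it held Mcm3, Mcm4 and Mcm7 at 123, 118 and 90.7 CPM. Mcm2 stood at 107, 304, 197 and 0 CPM in skin, and it had 1 count in spleen replicate 1, with 270 to 387 CPM in the other spleen libraries. Mcm3 (78.0 to 343 CPM in skin libraries, 63.7 to 224 CPM in spleen libraries) and Mcm7 (90.7 to 373 CPM in skin libraries, 93.5 to 351 CPM in spleen libraries) were found in all 8 libraries. They had the smallest errors of the 6, with log2 fold changes of 0.30 ± 0.66 and -0.26 ± 0.60 (SE), with an edgeR adjusted p of 0.998 for both. Mcm4 was the lowest of the 6 in fold change, at -1.28 ± 1.503 (SE).

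Enzymes that supply deoxynucleotides varied between libraries of the same tissue. Rrm2, the regulated subunit of ribonucleotide reductase, stood at 0, 139, 298 and 101 CPM in skin, against 47.3, 221, 17.7 and 180.3 CPM in spleen. Thymidylate synthase (Tyms) stood at 0.454, 93.0, 2.38 and 47.2 CPM in skin, against 69.3, 68.6, 43.9 and 32.7 CPM in spleen. Thymidine kinase 1 (Tk1) stood at 148, 65.0, 0.227 and 0 CPM in skin, against 45.5, 0, 43.3 and 42.2 CPM in spleen. The tissues overlapped for all 3 enzymes, and their log2 fold changes were between -0.58 and 0.70 with SE of 1.61 to 2.47.

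Among the E cyclins, which drive entry into S phase with Cdk2, Ccne1 was found in some libraries of each tissue. Ccne2 was mostly at a few counts or none. Ccne1 was found in skin replicates 1 and 4, at 209 and 250.1 CPM, and in spleen replicates 2 and 4, at 58.8 and 83.2 CPM, and had no count in the other 4 libraries. Its log2 fold change was 1.69 ± 2.94 (SE), with an edgeR adjusted p of 0.998. Ccne2 had 2, 5, 1 and 4 counts in skin libraries, and 0, 0, 214 and 3 counts in spleen libraries, so spleen replicate 3 alone was above 1 CPM. It was not tested for want of counts.

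Of the mitotic members, the motor Kif11, which pushes spindle poles apart, was the one without overlap between tissues. It had no count in skin replicates 1 and 2, 0.114 CPM in skin replicate 3 and 6.35 CPM in skin replicate 4, against 115, 57.4, 23.1 and 78.5 CPM in spleen replicates 1 to 4. Every spleen library was above every skin library. The log2 fold change was -5.40 ± 2.50 (SE) and did not pass (edgeR adjusted p = 0.449). With limma-voom it was called, at -7.59, and it had the lowest adjusted p of all members in DESeq2 (DESeq2 adjusted p = 0.0526), which did not call it.

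Ki-67 (Mki67), the common marker of cycling cells, was found in 1 skin library, replicate 3, at 58.2 CPM, and in all 4 spleen libraries, at 94.6, 160.4, 26.1 and 54.7 CPM. The skin value was inside the spleen range, and the log2 fold change was -2.53 ± 2.64 (SE), with an edgeR adjusted p of 0.996. Topoisomerase II alpha (Top2a), which untangles sister chromatids, stood at 102, 0, 0 and 91.5 CPM in skin, against 50.7, 299, 82.5 and 102 CPM in spleen. Mki67 was thus found in 1 skin library and Top2a in 2, none of them shared, and both in all 4 spleen libraries. With so few skin detections, the lack of a shared library does not show how the 2 genes relate.

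The kinase Cdk1 and its cyclins were not found together in every skin library, nor in spleen replicate 1. That spleen library held Ccna2 at 79.0 CPM and had no count for Cdk1. Cdk1 stood at 137, 142, 2.95 and 0 CPM in skin, against 0, 93.5, 41.6 and 61.4 CPM in spleen. In skin replicate 1, where Cdk1 was found, Ccna2, Ccnb1 and Ccnb2 had no count; in skin replicate 4 Ccnb2 was at 92.3 CPM and Cdk1 had no count. Ccna2, the cyclin of S phase and G2, stood at 0, 17.5, 103 and 0 CPM in skin, against 79.0, 72.3, 74.1 and 65.4 CPM in spleen, where its values were close together. Ccnb2 stood at 0, 120.4, 54.1 and 92.3 CPM in skin, against 0.974, 104, 68.3 and 51.7 CPM in spleen, which overlapped. Ccnb1, the main mitotic cyclin, had 0 counts in all 4 skin libraries and in spleen replicate 1, and stood at 49.8, 102 and 76.0 CPM in spleen replicates 2 to 4.

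Ccnb1, the checkpoint genes Bub1 and Bub1b, and the kinetochore motor Cenpe were the 4 members at 0 in all skin libraries, and none had counts enough to be tested. Bub1 stood at 91.3, 33.8 and 18.7 CPM in spleen replicates 2 to 4, and Bub1b at 121 and 84.4 CPM in spleen replicates 2 and 4. Cenpe stood at 22.8 and 34.8 CPM in spleen replicates 3 and 4. All 4 had no count in spleen replicate 1 either, so the tissues overlapped. Taken against a floor of 3 counts in each skin library, mean levels were at least 147-fold lower in skin for Ccnb1, 132-fold for Bub1b, 92.9-fold for Bub1 and 37.2-fold for Cenpe. Without spleen replicate 2 the bounds were 72.7-fold for Bub1b and 45.2-fold for Bub1, and without spleen replicate 4 that of Cenpe was 19.6-fold. These bounds cover counting error and not transcripts lost before sequencing. Of all genes in the band from 20 to 200 CPM, 5.90% had 0 counts in all 4 skin libraries, and of the 18 mitotic members in it 2 had none, Ccnb1 and Bub1b.

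Subunits of the chromosomal passenger complex, which corrects faulty attachments of chromosomes to the spindle, were scattered over the skin libraries. The kinase Aurkb was at 156 CPM in skin replicate 1 and had no count in the other skin libraries, against 0, 61.0, 83.9 and 66.9 CPM in spleen. Its partners survivin (Birc5) and borealin (Cdca8) were found in skin replicates 2 and 4 and not in skin replicate 1, so no skin library held the kinase with either partner. Birc5 stood at 0, 18.9, 0 and 58.5 CPM in skin, against 101, 25.7, 51.9 and 117 CPM in spleen. Cdca8 stood at 0, 96.7, 0 and 60.0 CPM in skin, against 83.0, 44.5, 112 and 128 CPM in spleen. Every spleen library held both partners, and spleen replicate 1 held them without the kinase, so this mismatch was not particular to skin. The kinase was found in 1 skin library and each partner in 2. With so few detections, the lack of a shared skin library does not show how these genes relate. With the scaffold Incenp, a gene of the wider list, 1, 3, 1 and 2 of the 4 subunits were found in skin replicates 1 to 4 and 3, 4, 4 and 4 in spleen replicates 1 to 4.

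Plk1, Cdc20, Ube2c, Tpx2 and Nusap1 were each found in fewer skin than spleen libraries, and Aurka and Cdk1 in 3 of each. Polo-like kinase 1 (Plk1) was found in skin replicate 3 at 74.2 CPM and in spleen replicates 2 to 4 at 73.9, 93.9 and 82.4 CPM. Cdc20, which activates the anaphase-promoting complex, stood at 0, 0, 67.2 and 25.4 CPM in skin, against 155, 114, 65.6 and 79.2 CPM in spleen. Ube2c, the ubiquitin-conjugating enzyme of that complex, was found in skin replicate 2 at 106 CPM, against 123, 138, 93.1 and 84.0 CPM in spleen. For these 3 the spleen level was higher on average, with log2 fold changes, skin over spleen, of -1.75 to -2.16 and SE of 2.18 to 2.97. Aurora A (Aurka), the kinase of spindle poles, stood at 0, 99.9, 33.9 and 58.9 CPM in skin, against 0, 41.7, 27.6 and 49.5 CPM in spleen, with a log2 fold change of 0.70 ± 2.25 (SE). Its activator Tpx2 was found in skin replicate 3 at 20.2 CPM and in spleen replicates 2 to 4 at 120.4, 48.2 and 46.4 CPM. The spindle protein Nusap1 stood at 0, 0, 122 and 46.5 CPM in skin, against 0, 129, 129 and 87.9 CPM in spleen.

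Cenpa, the histone H3 variant that marks centromeres, was the mitotic member found in all 8 libraries. It stood at 131, 35.7, 109 and 43.5 CPM in skin, against 76.8, 124, 72.7 and 81.6 CPM in spleen. The tissues overlapped, and the log2 fold change was -0.15 ± 0.98 (SE), with an edgeR adjusted p of 0.998.

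Spleen replicate 1 lay closer to the skin libraries in the mitotic genes than the other spleen libraries did. It had no count for Ccnb1, Cdk1, Bub1, Bub1b, Aurka, Aurkb, Plk1, Cenpe, Nusap1 and Tpx2, and it held 94.6 CPM of Mki67, 155 CPM of Cdc20 and 115 CPM of Kif11. It had 6415 genes with a count, the fewest of the spleen libraries. Without it the difference in mitotic members detected, skin mean minus spleen mean, was -11.6, and with it -9.25. B cell markers summed to 166, 66.6, 31.5 and 87.1 CPM in spleen replicates 1 to 4 and had no count in skin for any of the 6 genes. Erythroid markers summed to 0 to 2.12 CPM in skin, against 111 to 274 CPM in spleen. The highest spleen sum of mitotic members was in replicate 2, with 66.6 CPM of B cell and 274 CPM of erythroid markers. The part of cells of other types in the mitotic transcripts was not tested.

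Most genes of the wider cell cycle lists were not called either. Of 39 other mitotic genes 22 were tested, and 0 were higher and 0 lower in skin (edgeR; 1 at an unadjusted p under 0.05, Hmgb2), with a median log2 fold change of -0.21. They summed to 2074, 2334, 2052 and 1245 CPM in skin, against 2774, 2765, 2069 and 2480 CPM in spleen, which overlapped. Hmgb2, a chromatin protein also made outside mitosis, stood at 606 ± 91.8 CPM in skin, against 834 ± 99.99 CPM in spleen (SD, n = 4 each). The condensin subunit Smc4 stood at 182 ± 63.9 CPM in skin, against 216 ± 23.6 CPM in spleen, and securin (Pttg1) at 183 ± 120 CPM in skin, against 97.0 ± 26.8 CPM in spleen. None of these 3 was called. Other mitotic genes detected numbered 14, 18, 16 and 10 of 39 in skin replicates 1 to 4, against 20, 25, 27 and 37 in spleen replicates 1 to 4, without overlap. The number of all genes with a count did not overlap either.

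Of 35 other S phase genes 24 were tested, and 1 was higher and 2 lower in skin, against 1.85% higher and 3.58% lower over all genes tested. Slbp, which binds histone mRNA, stood at 1531, 672, 835 and 467 CPM in skin, against 149.5, 269, 295 and 268 CPM in spleen, without overlap, and rose by 1.84 ± 0.40 on the log2 scale (SE), with an edgeR adjusted p of 0.0473. Gins2 and Rfc4, the 2 lower genes, were at 0 in all skin libraries and entered the test only through their spleen counts, so their calls rest on the filter on low counts. Without the filter their edgeR adjusted p were 0.166 and 0.154, and neither was called. Gins2, a subunit of the replication helicase, had no count in skin and 39.7, 25.6, 46.2 and 40.1 CPM in spleen, at least 98.0-fold lower in skin (edgeR adjusted p = 0.0473). Rfc4, a subunit of the clamp loader, had no count in skin and 17.5, 58.5, 67.6 and 47.4 CPM in spleen, at least 123-fold lower (edgeR adjusted p = 0.0473). Gins2 and Rfc4 also lost their calls in each fit that left out 1 library, and Slbp in each except that without skin replicate 4. Rrm1, Fen1 and Asf1b, the most abundant genes of this list by CPM that were not called, stood at 216 ± 70.8, 138 ± 95.6 and 108 ± 125 CPM in skin, against 114 ± 80.6, 176 ± 55.0 and 113 ± 47.2 CPM in spleen. Other S phase genes detected numbered 13, 12, 12 and 17 of 35 in skin replicates 1 to 4, against 18, 23, 28 and 29 in spleen replicates 1 to 4, without overlap, as for the number of all genes with a count. The summed level of the list was 1579 to 3184 CPM in skin, against 1575 to 2679 CPM in spleen.

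Of 19 regulators of G1, the phase in which a cell leaves rest, 10, 10, 10 and 9 were detected in skin replicates 1 to 4, against 11, 12, 14 and 16 in spleen replicates 1 to 4, without overlap. At 0 in all skin libraries were 4 of them, and 1 of these was at 0 in all 8 libraries. Of the 19 genes 13 were tested, and 0 were higher and 0 lower (edgeR; 1 at an unadjusted p under 0.05, Cdk4). The D cyclin Ccnd2 stood at 691, 613, 577 and 829 CPM in skin, against 1102, 1071, 738 and 756 CPM in spleen. Ccnd3 stood at 1116, 1261, 1406 and 389 CPM in skin, against 639, 477, 817 and 859 CPM in spleen. Both overlapped between the tissues. Cdk4, the kinase that the D cyclins activate, stood at 152, 121, 62.4 and 126 CPM in skin, against 235, 346, 370.4 and 310.4 CPM in spleen, without overlap. Its log2 fold change was -1.45 ± 0.42 (SE), with an edgeR adjusted p of 0.0927, not called, and DESeq2 called it at -1.39. Its relative Cdk6 had a count in spleen replicate 3 alone, at 6.13 CPM. E2f4, the E2F factor of resting cells, stood at 234 ± 154 CPM in skin, against 172 ± 36.8 CPM in spleen. Rb1, which holds E2F factors in check, stood at 52.9 ± 81.6 CPM in skin, against 68.5 ± 16.9 CPM in spleen. Its relative Rbl2, a part of the DREAM complex, stood at 161 ± 147 CPM in skin, against 347 ± 177 CPM in spleen, and the growth factor response gene Myc at 66.4 ± 53.0 CPM in skin, against 123 ± 49.5 CPM in spleen (SD, n = 4 each). None of these 4 was called.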

How the data were processed

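Per the labels' protocols, libraries came from low-input total RNA by SMART-Seq v4, which does not mark strand, and were read from both ends. The authors deposited expected counts per gene. The submitters' processing notes name FastQC, RSEM, DESeq2 1.16.1 and mm9 without their role; aligner and annotation: not given in the sources used here. Reads of overlapping or near-identical genes cannot be told apart with certainty.

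Columns were matched by the labels' descriptions; titles give group and replicate. Expected counts were rounded. filterByExpr left 6920 of 22549 genes, and library sizes over them were scaled by TMM. edgeR 4.0.16 (limma 3.58.1, R 4.3.3) fitted tissue as the only term by robust quasi-likelihood, with Benjamini-Hochberg adjustment over all genes at 0.05. The common dispersion was 2.94. The SE is the log2 fold change divided by the square root of F. The fit was also run on simulated counts with known fold changes, and the share of these recovered is not reported here. Without molecular identifiers, a floor reflects counting error alone. No libraries agreed within sampling noise (chi-square over degrees of freedom at least 112 for every pair). Columns left unused numbered 0.

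The members and lists were chosen with earlier results of these data known. The genes named are all 32 members, each called gene of 3 wider lists, Ccnd2, Ccnd3, Cdk4, Cdk6, E2f4, Rb1, Myc, Cd3e and Cd3d, and the 3 uncalled genes of each wider list with the highest mean CPM; Incenp and the grouping by complexes were chosen after their values were seen. Where RefSeq lists several promoters of a gene, the first was used.

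Alternatives were DESeq2's size factors, upper-quartile scaling, limma-voom with quality weights, DESeq2 1.42.0, no filter, a minimum of 5 CPM in 4 libraries, the replicate number as a block, expected counts rounded down, each library left out, sums without the most abundant member, and a shorter promoter window. Plain library totals, detection at any count and fold bounds without each library were added after seeing the data.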

Additional observations from a re-analysis of the deposited data

Results flagged for a closer look

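In 10 of the 64 sets of 4 values (32 members in 2 tissues) the highest or lowest library stood far from the other 3 by Dixon's gap-over-range test. The test flags about 1 in 20 sets of normally distributed values. Many values here were 0: a set with 1 value above 0 is always flagged, and a set with every value at 0 never is. The 10 flags thus cannot be set against that rate. In skin the library that stood apart was the highest in each case. These were skin replicate 3 for Mki67 (58.2 CPM), Ccna2 (103 CPM), Plk1 (74.2 CPM) and Tpx2 (20.2 CPM), skin replicate 1 for Aurkb (156 CPM), skin replicate 2 for Ube2c (106 CPM) and skin replicate 4 for Kif11 (6.35 CPM). The other 3 skin libraries had no count for Mki67, Aurkb, Plk1, Ube2c and Tpx2. In spleen, replicate 3 was high for Ccne2 (30.5 CPM), and replicate 2 was high for Mcm5 (465 CPM) and low for Tk1 (0 CPM).

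By the same test, the summed level of the S phase members was low in skin replicate 4 (980 CPM, against 1881 to 2029 CPM in the other skin libraries). The number of mitotic members detected was low in spleen replicate 1 (10, against 19 to 20 in the other spleen libraries).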

How the results depend on the processing

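No member was called under any alternative with edgeR or DESeq2, and limma-voom with quality weights called 2 mitotic members lower in skin (Kif11 and Ube2c). The summed mitotic level kept its direction in all 12 alternatives (log2 skin over spleen -1.06 to -1.43, against -1.26), while the S phase sum (-0.14) was between -0.35 (without the most abundant member) and 0.05 (without skin replicate 4) over its 12. Over all genes, those higher in skin numbered 128 and those lower 248; without 1 library they numbered 47 to 102 and 17 to 111, with DESeq2 295 and 447, with limma-voom 209 and 519, and without a filter 48 were lower. With the replicate number as a block 36 genes were higher and 14 lower, and the median log2 fold change was -5.78 over mitotic members, -0.84 over S phase members and -0.99 over all genes. Same-numbered libraries did not deviate together (correlations -0.000311 to 0.0138), not every library correlated best with its own number, and the numbers were not taken as pairs.

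Within 50 bases of the start a CHR element was in 0 S phase promoters, a CCAAT box in 9 mitotic, and an E2F site in 3 S phase and 0 mitotic promoters. The sign of the log2 fold change turned in at least 1 setting for 9 of 27 members tested. With limma-voom it turned for Ccne1 (-0.17), Mcm7 (0.10), Rrm2 (-1.66), Tk1 (-2.77), Ccnb2 (-1.88), Cdk1 (-2.16) and Aurka (-1.48), and for Cd3e (-0.018). With the replicate block it turned for Rrm2 (-0.84), Tk1 (-2.68), Ccnb2 (-0.63) and Cdk1 (-1.58). When each library was left out in turn, values spanned 0 for Mcm3 (-0.24 to 0.58), Mcm7 (-0.90 to 0.052), Rrm2 (-0.58 to 0.70), Tk1 (-0.62 to 1.06), Ccnb2 (-0.23 to 0.71), Cdk1 (-0.14 to 1.02), Cenpa (-0.53 to 0.049), Rb1 (-2.44 to 0.011), Cd3e (-0.21 to 0.26), Fen1 (-0.67 to 0.025) and Asf1b (-0.74 to 0.29). The cause was not tested.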
